A study of Homarus americanus with 19 samples.

Results

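The 100 ortholog groups with the steadiest counts across all 19 American lobster (Homarus americanus) larvae were described as candidate reference features. An ortholog group is a set of proteins from many species that descend from 1 ancestral gene, and Seq2Fun assigns each RNA-seq read to such a group by translated search, without a genome of the species. Counts were divided by the column total of each larva and scaled to CPM, the count per 1e6 counts of that larva. Of 13933 ortholog groups in the table, 2156 had a mean between 50 and 1000 CPM over the control larvae, and the members were the 100 of these with the smallest standard deviation (SD) of log2(CPM + 0.5) over all larvae. The members make up 4.64% of this window, and its other 2056 groups are the comparison throughout. The members were thus chosen by their SD over the same larvae, so their small spread is a description and not a finding, and no test was run on it.

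The samples were whole larvae exposed for 24 h, with 1 library per larva and no pooling. The 6 methylnaphthalene larvae received 1-methylnaphthalene, an aromatic hydrocarbon of crude oil, at 0.3 mg/L as a positive control. The 7 WAF larvae received a 72% water accommodated fraction, which is the part of a heavy crude oil that mixes into seawater, and the 6 control larvae had plain seawater passed through a 0.22 µm filter. The labels give the stage as embryonic day 9, while the study describes stage I larvae. The labels state no genetic modification, and no source used here says whether larvae of a group shared a vessel or a mother. Total counts ranged between 4580939 and 22681602 per larva, with medians of 12369300 in methylnaphthalene larvae, 8674377 in WAF larvae and 9740820 in control larvae. The label of whole larvae was checked against named markers with a mean of at least 1 CPM over the larvae of all groups. There were 7 such groups for muscle, with means of 607 to 27722 CPM. Of these, 3 were actins, 1 of them named as cytoplasmic and so not particular to muscle. Cuticle had 3 groups with means of 2.49 to 4434 CPM, and hemolymph had 1, a hemocyanin, at 7524 CPM. This hemocyanin averaged 4.68 log2 units higher in methylnaphthalene larvae than in control larvae. Its control mean lay between 50 and 1000 CPM, so 7524 CPM does not describe unexposed larvae. The digestive gland had 3, with means of only 1.08 to 64.3 CPM. The most abundant of them, a trypsin group, averaged 2.31 log2 units higher in methylnaphthalene larvae than in control larvae. Other markers were lower with methylnaphthalene, down to −1.26 log2 units in a troponin C group of muscle. No group was named as an opsin, the marker of the eye.

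Reference genes are genes whose RNA level is taken as constant, so that the level of another gene can be read relative to them. Classical choices serve functions that every cell needs, such as the cytoskeleton, glycolysis, protein folding and translation. RNA-seq measures relative abundance, so a group can look constant only against the total chosen as the denominator. In whole larvae, fewer cells of a type and less RNA per cell cannot be told apart.

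The steadiest member was s2f_0007288001, which has no gene name in the sources used here. Its lowest, median and highest values were 91.4, 96.3 and 98.4 CPM in methylnaphthalene larvae, 96.0, 101 and 106 CPM in WAF larvae, and 88.6, 98.9 and 106 CPM in control larvae. All 19 larvae thus lay within 1.20-fold of each other, and the control larvae spanned the values of all exposed larvae. The SD over all larvae was 0.0678 on the log2 scale, against 0.0472 expected from counting reads alone.

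RIOK3 (s2f_0001938002) was the second steadiest member and the steadiest with a name. It encodes a kinase of the RIO family, whose human form is linked to maturation of the small ribosomal subunit. Its lowest, median and highest values were 137, 144 and 150 CPM in methylnaphthalene larvae, 125, 138.4 and 148 CPM in WAF larvae, and 139, 143 and 159 CPM in control larvae. The 3 groups overlapped, and the SD over all larvae was 0.0752.

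The next members differed more in abundance than in spread. The member s2f_0000379005 had 337, 373 and 396 CPM as lowest, median and highest in methylnaphthalene larvae, 354, 388 and 407 CPM in WAF larvae, and 386, 396 and 416 CPM in control larvae. The member s2f_0003440001 had 353, 364 and 388 CPM in methylnaphthalene larvae, 334, 370 and 435 CPM in WAF larvae, and 374, 384 and 397 CPM in control larvae. In s2f_0003440001 the WAF larvae held both the lowest and the highest value, while the controls were tightly grouped.

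The member s2f_0003817002 came closest to equal class means among the first 6. It averaged 226 ± 13.8 CPM in methylnaphthalene larvae (SD, n = 6), 230 ± 13.8 CPM in WAF larvae (SD, n = 7) and 232 ± 14.1 CPM in control larvae (SD, n = 6). The SDs inside each class were thus larger than the differences between classes. The member s2f_0001558001, at 56.0 ± 4.06 CPM in methylnaphthalene larvae, 59.9 ± 3.06 CPM in WAF larvae and 56.4 ± 2.93 CPM in control larvae (SD, n as above), was the scarcest of the 12 steadiest. Among the remaining ones, s2f_0009993003 averaged 412 ± 22.2 CPM in methylnaphthalene larvae, 419 ± 23.1 CPM in WAF larvae and 392 ± 17.1 CPM in control larvae, so that both exposed means were the higher ones. The last of these 12 was s2f_0068878001, with an SD over all larvae of 0.0969.

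**Figure D1:**
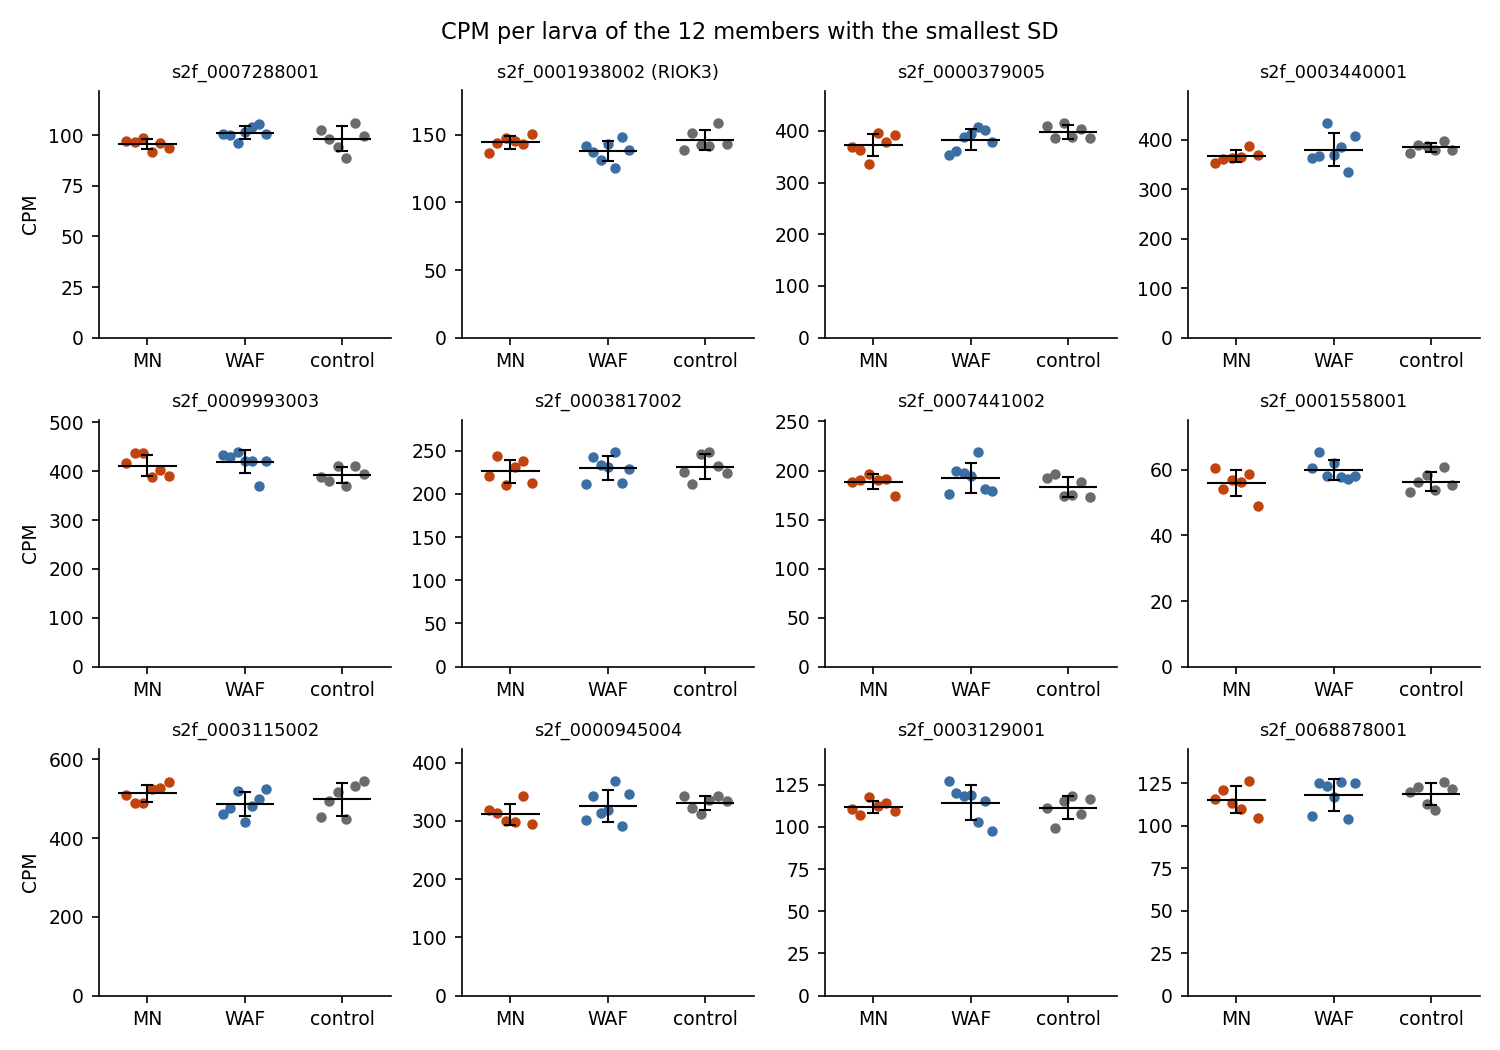
Each panel plots the CPM (vertical axis, from 0) of 1 of the 12 members with the smallest SD, with a point per larva in the methylnaphthalene (MN), WAF and control groups (horizontal axis) and the mean ± SD of each group in black. The groups overlap in every panel, and the panels differ mainly in abundance, as s2f_0001558001 near 60 CPM and s2f_0003115002 near 500 CPM show.

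Across all 100 members the SD lay between 0.0678 and 0.135, with a median of 0.119, against a median of 0.350 in the other groups of the window. The ratio of the highest to the lowest larva had a median of 1.36 and was under 1.5 in 99 of the 100 members, s2f_0003517002 being the exception at 1.51. In the other groups the median ratio was 2.29. The members covered almost the whole lower part of the window, with mean values over the larvae between 48.7 CPM in s2f_0000036015 and 537 CPM in s2f_0003285002 and a median of 101 CPM. No member lay near the upper limit of 1000 CPM.

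The limit of 100 members fell in a dense part of the distribution. Just inside it were s2f_0000575007, s2f_0002903002 and s2f_0004212002, with SDs of 0.1344, 0.1347 and 0.1350. Just outside it were s2f_0001387001, s2f_0006922002 and s2f_0003005002, with SDs of 0.1351, 0.1354 and 0.1357. Membership near the limit therefore turned on differences in the fourth decimal.

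Counting error was a sizable part of the spread of the members. No member fell below 181 counts in any larva. The SD expected from Poisson counting had a median of 0.0467, and the observed SD was between 1.44 and 6.10 times this value, with a median of 2.41. It was over 2 times the counting SD in 83 members. Counting variance made up a median of 17.2% of the variance of a member, against 1.76% for the other groups of the window. The share was largest in s2f_0007288001, at 48.5%. These figures account for counting alone, and copies of 1 molecule made by PCR were not told apart.

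**Figure D2:**
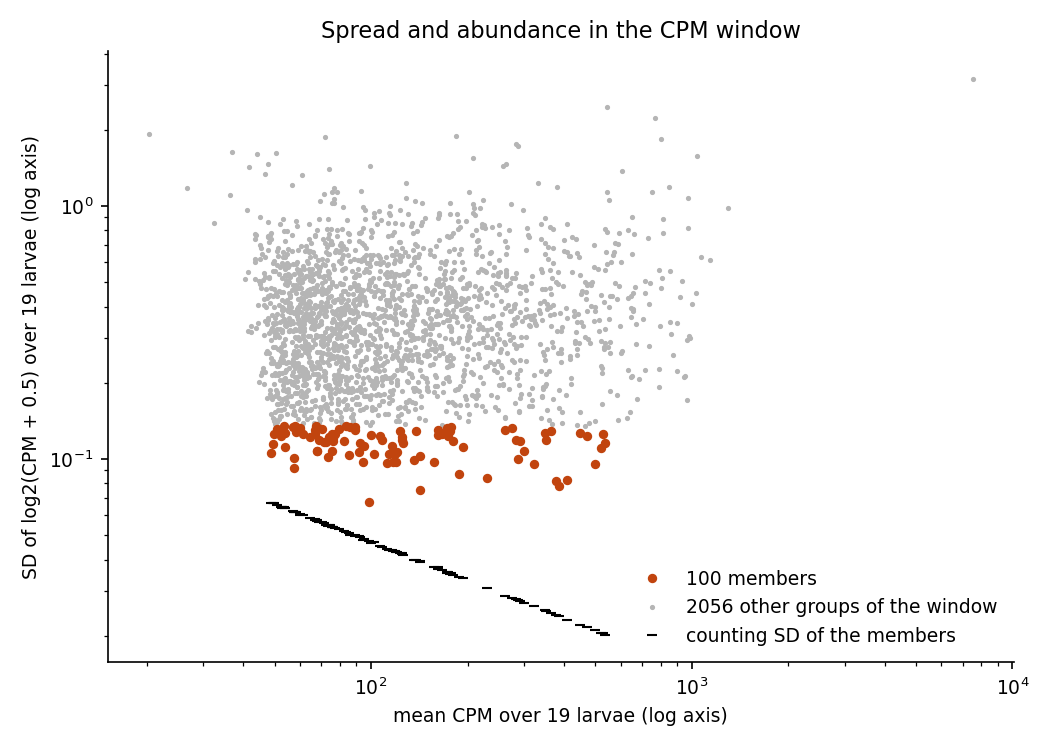
The SD of log2(CPM + 0.5) over 19 larvae (vertical log axis) is plotted against the mean CPM (horizontal log axis) for the 100 members (orange) and the 2056 other groups of the window (grey), with the SD expected from counting alone for each member as a black dash. The members form the lower edge of the cloud up to 537 CPM, and the gap to the counting SD is narrowest at low CPM.

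The spread inside the classes was compared with the spread between them. The SD inside classes, pooled over the 3 groups, had a median of 0.112 in the members, and the SD of the 3 class means had a median of 0.0540. The standard error of the mean of 6 larvae with that spread has a median of 0.0457. The spread of the class means was thus a little above the standard error of a single one. In 94 of 100 members the class means varied less than the larvae of a class. Means of several larvae vary less than single larvae even without a class difference, so nothing is read from this count. The between-class share of the sum of squares had a median of 16.5%, against 14.3% in the other groups of the window, so the members had a smaller spread of both kinds rather than a smaller share between classes. The other groups had a median of 0.335 inside classes and 0.155 between class means.

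The spread inside each class was not the same. The median SD of log2(CPM + 0.5) was 0.103 in methylnaphthalene larvae, 0.116 in WAF larvae and 0.0942 in control larvae. The other groups of the window kept a different order, with 0.360 in methylnaphthalene larvae, 0.337 in WAF larvae and 0.264 in control larvae. Control larvae had the lowest median in both sets.

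**Figure D3:**
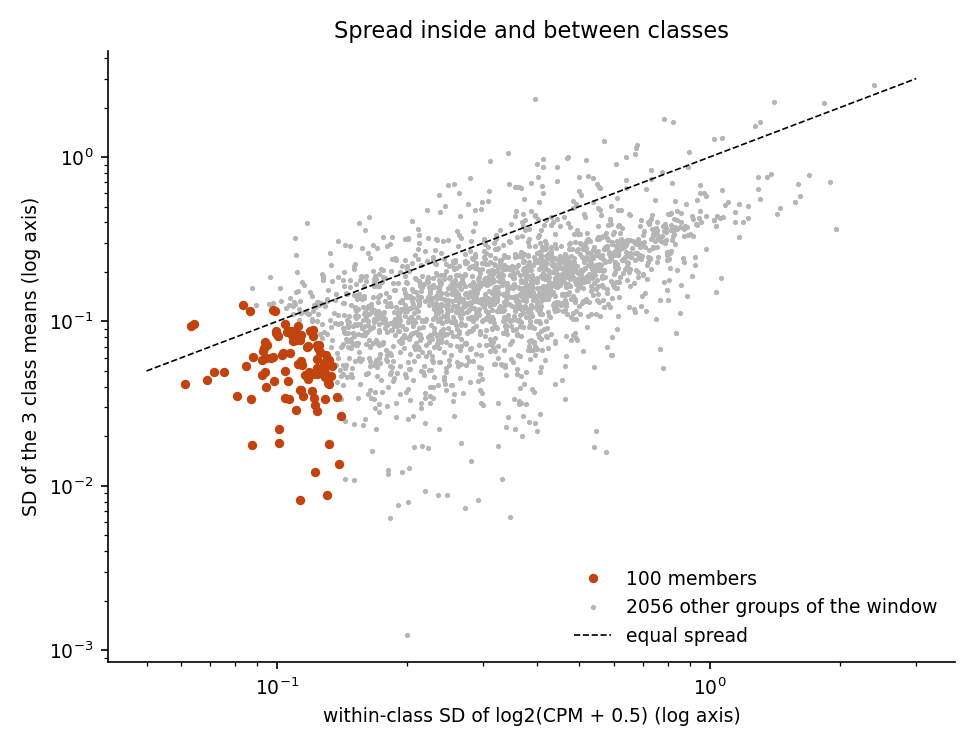
The SD of the 3 class means (vertical log axis) is plotted against the pooled within-class SD (horizontal log axis), both of log2(CPM + 0.5), for the 100 members (orange) and the 2056 other groups of the window (grey). All but 6 members lie below the dashed line of equal spread, where means of several larvae tend to lie even without a class difference.

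The 6 members above that line were s2f_0001811004, s2f_0004216002, s2f_0002745001, s2f_0004243002, s2f_0002053002 and s2f_0002675001. The largest between-class share was that of s2f_0004243002, at 64.2%. Its values were 44.8, 45.6 and 46.9 CPM as lowest, median and highest in methylnaphthalene larvae, 49.0, 55.2 and 59.5 CPM in WAF larvae, and 46.2, 51.5 and 57.1 CPM in control larvae. The methylnaphthalene larvae all lay below the WAF larvae and overlapped the control larvae. In s2f_0001811004 the lowest, median and highest values were 140, 146 and 150 CPM in methylnaphthalene larvae, 149, 156 and 167 CPM in WAF larvae, and 154, 165 and 180 CPM in control larvae. Here all methylnaphthalene larvae lay below all control larvae, by a mean of 0.19 on the log2 scale (SE 0.037).

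The largest differences between class means went both ways. The member s2f_0002675001 had the lowest methylnaphthalene mean relative to control, with 73.8, 81.6 and 89.8 CPM in methylnaphthalene larvae, 78.4, 87.6 and 97.5 CPM in WAF larvae, and 90.5, 95.7 and 104.8 CPM in control larvae. The methylnaphthalene larvae and the control larvae did not overlap, and the difference was −0.24 (SE 0.057). The member s2f_0002053002 had the highest, with 57.2, 64.2 and 71.4 CPM in methylnaphthalene larvae, 55.2, 61.6 and 67.5 CPM in WAF larvae, and 52.4, 53.6 and 58.4 CPM in control larvae. Its differences from control were 0.22 (SE 0.057) for methylnaphthalene and 0.17 (SE 0.055) for WAF, with overlapping values in both comparisons.

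In other members with large differences from control the larvae overlapped. The member s2f_0002745001 averaged 71.7 ± 2.80 CPM in methylnaphthalene larvae, 75.7 ± 3.75 CPM in WAF larvae and 84.2 ± 7.12 CPM in control larvae (SD, n = 6, 7 and 6), so that both exposed means were the lower ones. The member s2f_0000575007 had the lowest WAF mean relative to control, at −0.17 (SE 0.067), with 55.9, 63.8 and 79.4 CPM as lowest, median and highest in WAF larvae, against 67.5, 73.1 and 77.5 CPM in control larvae. The WAF larvae of this member reached both below and above all control larvae.

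In other members 1 or both of the exposed means were apart from control. The member s2f_0003874004 averaged 168 ± 7.35 CPM in methylnaphthalene larvae, 165 ± 15.8 CPM in WAF larvae and 150 ± 9.53 CPM in control larvae (SD, same n). The member s2f_0000783002 averaged 348 ± 14.4 CPM in methylnaphthalene larvae, 387 ± 30.8 CPM in WAF larvae and 353 ± 37.0 CPM in control larvae, with the WAF mean above the rest and overlapping values. The member s2f_0004216002 averaged 53.0 ± 2.68 CPM in methylnaphthalene larvae, 60.02 ± 2.84 CPM in WAF larvae and 59.0 ± 2.04 CPM in control larvae, and its methylnaphthalene mean was the lowest.

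Over all members the methylnaphthalene mean differed from the control mean by −0.24 to 0.22, with a median of −0.067, and lay below it in 73 members and above it in 27. The median in the other groups of the window was −0.085. The WAF mean differed from the control mean by −0.17 to 0.17, with a median of −0.0090, and was lower in 53 members and higher in 47, against a median of 0.00057 in the other groups. Both comparisons share the control larvae.

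Members whose groups did not overlap in CPM were rare. There were 2 in methylnaphthalene against control, both lower with methylnaphthalene (s2f_0001811004 and s2f_0002675001), where 5.52% of the groups of the window did not overlap in either direction. There were 0 in WAF against control, where the share in the window was 1.48%. In methylnaphthalene against WAF there was 1, s2f_0004243002, against 0.974%. The rule favours overlapping groups, so nothing is read from these counts.

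Each comparison was also fitted with edgeR's quasi-likelihood test across 10974 ortholog groups. At a Benjamini-Hochberg adjusted p below 0.05, 0 of the 100 members were called in methylnaphthalene against control, where 6.21% of all groups tested were called. Likewise 0 were called in WAF against control, with 0.282% of all groups called, and 0 in methylnaphthalene against WAF, with 2.34%. At an unadjusted p below 0.05, edgeR passed 1 member in methylnaphthalene against control, where 14.7% of all groups tested passed, 0 in WAF against control (7.69%) and 0 in methylnaphthalene against WAF (13.7%). DESeq2 and limma also called 0 members after adjustment. Over all 10974 groups limma called 575 in methylnaphthalene against control, 28 in WAF against control and 410 in methylnaphthalene against WAF. DESeq2 called 898, 67 and 471 in the same order. At an unadjusted p below 0.05 limma passed 0 members in each comparison, where 1558, 886 and 1502 of all groups passed. DESeq2 passed 1 member in methylnaphthalene against control, 0 in WAF against control and 1 in methylnaphthalene against WAF. Of all groups DESeq2 passed 1729, 922 and 1649 in the same order. With library sizes left unscaled, as in the rule, edgeR called 0 members after adjustment. At an unadjusted p below 0.05 it then passed 6 members in methylnaphthalene against control, where 1512 of 10974 groups passed. It passed 0 in WAF against control (661 of 10974) and 2 in methylnaphthalene against WAF (1528 of 10974). The rule used the spread over these same larvae, so nothing is read from these counts. All of these fits except the unscaled one also rescaled the libraries.

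The members did not behave as 1 block. Over the 4950 pairs of members, the correlation of log2(CPM + 0.5) across the 19 larvae ranged between −0.851 and 0.864, with a median of 0.113, and 3075 pairs were above 0. The first principal component held 21.4% of their variance. All values of a larva share its library and its column total, so these correlations are a description only.

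The ratio between members does not depend on the column total. The SD of the log2 ratio to the other members, averaged per member, lay between 0.127 and 0.193 and was lowest in s2f_0003440001. Of the 10 steadiest members by this ratio, 6 were also among the 10 with the smallest SD. The pair with the steadiest ratio was s2f_0001037005 and s2f_0000025021, with an SD of 0.0635 for their log2 ratio. Alone, these members ranked 22 and 69 by SD. The means of both were lowest with methylnaphthalene. In s2f_0001037005 they were 112.1 ± 5.58 CPM in methylnaphthalene larvae, 120 ± 10.2 CPM in WAF larvae and 123 ± 6.28 CPM in control larvae (SD, n = 6, 7 and 6). In s2f_0000025021 the means were 155 ± 11.5 CPM in methylnaphthalene larvae, 167 ± 15.5 CPM in WAF larvae and 176 ± 5.51 CPM in control larvae (SD, same n). Their ratio was steadier than the level of either, but the pair was picked as the lowest of 4950 on these same larvae. Over all pairs the SD of the log2 ratio had a median of 0.154. The median SD of a member alone was 0.119, but a ratio carries the spread of both members, so nothing is read from this difference.

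The members together held between 1.44% and 1.59% of the counts of a larva. The median deviation of the members from their own means was taken as their common shift in a larva. It was between −0.068 and −0.0014 in methylnaphthalene larvae, between −0.062 and 0.082 in WAF larvae, and between 0.0047 and 0.047 in control larvae. The shift averaged −0.039 in methylnaphthalene larvae and 0.022 in control larvae, with no overlap between the 2 groups, while the WAF larvae covered both. In the other groups of the window the shift was between −0.13 and 0.072 in methylnaphthalene larvae and between −0.12 and 0.074 in control larvae. The rule chose members with little spread on these same column totals, which by itself narrows their shift, so nothing is read from this contrast.

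The choice of denominator moved this picture. TMM normalization rescales each library so that most groups do not change between larvae, and its log2 factors ranged between −0.24 in methylnaphthalene larva 3 and 0.27 in methylnaphthalene larva 5, with an SD of 0.165 over the larvae. With TMM library sizes, the common shift of the members spanned −0.30 to 0.19 in methylnaphthalene larvae, −0.27 to 0.15 in WAF larvae and −0.20 to 0.22 in control larvae. The groups then overlapped. The SD of the shift over all larvae was 0.173 with TMM and 0.0449 with column totals. The 10 most abundant ortholog groups held between 13.0% and 19.1% of the counts of a larva, and their part in these factors was not tested.

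**Figure D4:**
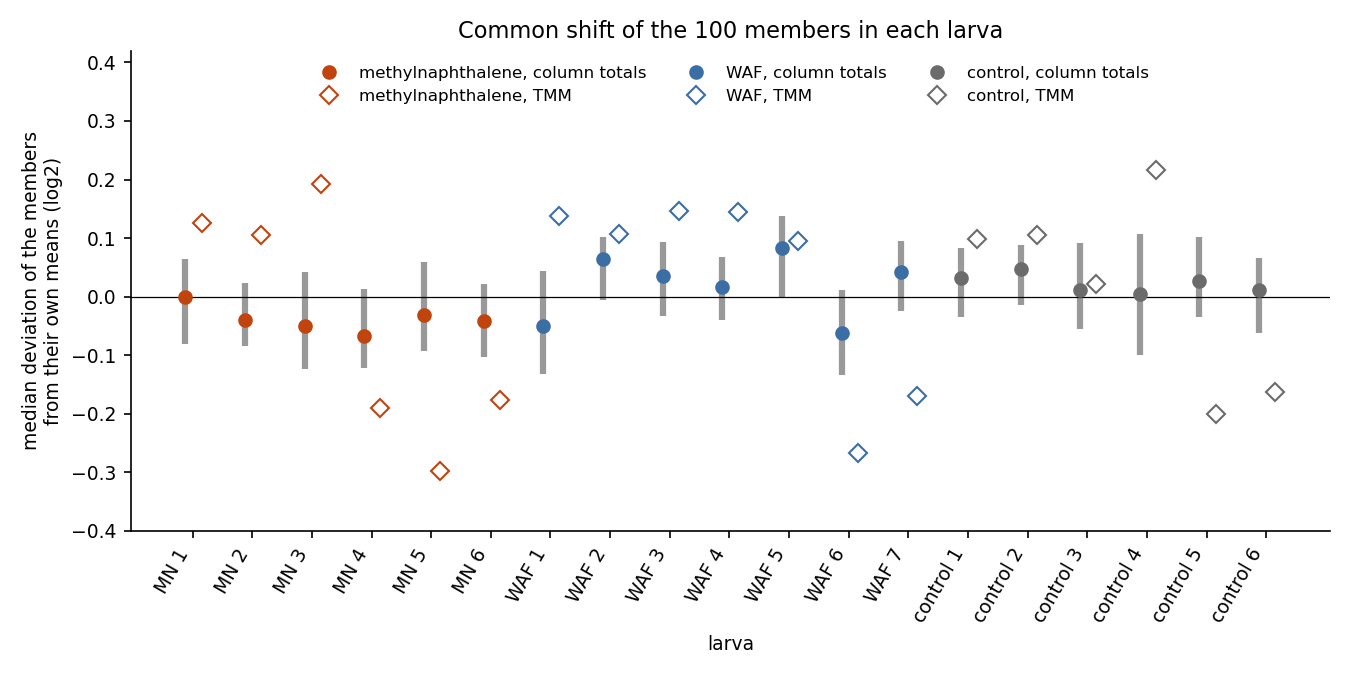
The median deviation of the 100 members from their own means (log2, vertical axis) is shown for each larva (horizontal axis; MN stands for methylnaphthalene) with column totals (filled circles, with the interquartile range over members as a grey bar) and with TMM library sizes (open diamonds). The circles stay between −0.068 and 0.082, and the diamonds reach between −0.30 and 0.22.

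Few members stayed among the 100 steadiest groups of the window when the denominator changed. With TMM library sizes 6 of the 100 remained, and with the size factors of DESeq2 5 remained, where a set of 100 takes 4.64% of the window. The median SD of the members was 0.201 with TMM and 0.211 with DESeq2, against 0.119 with column totals. With TMM the 100 steadiest groups chosen afresh had a median SD of 0.115, so a set just as steady existed under that denominator and consisted mostly of other groups. The totals of the Kallisto table, made from the same reads on the lobster transcriptome, left 1 member, SOD2, and gave the members a median SD of 0.246. Leaving the 10 most abundant groups out of the column totals kept 73 members, with a median SD of 0.113.

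The spread between classes moved less than the spread inside them with TMM and DESeq2. The SD of the class means had a median of 0.0563 with TMM, 0.0665 with DESeq2 and 0.110 with the Kallisto totals, against 0.0540 with column totals. The median WAF minus control difference of the members was 0.0097 with TMM, 0.046 with DESeq2 and −0.20 with the Kallisto totals, where the other groups of the window had 0.019, 0.055 and −0.19. The sign of the WAF difference of the members thus changed with the denominator, and the other groups shifted with them. The median for methylnaphthalene minus control kept its sign, at −0.059, −0.057 and −0.079, with 72, 72 and 76 members below control.

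The 5 members that stayed under column totals, TMM and DESeq2 were s2f_0003115002, s2f_0001833004, s2f_0002658001, s2f_0000029009 and s2f_0001528002. Their number is close to the 4.64% of the window that any set of 100 takes, and TMM and DESeq2 scale the larvae alike, so their values are given as a description. The first had 489, 517 and 543 CPM as lowest, median and highest in methylnaphthalene larvae, 440, 481 and 525.9 CPM in WAF larvae, and 448, 505 and 546 CPM in control larvae, with SDs of 0.0951 with column totals, 0.119 with TMM and 0.131 with DESeq2. It was the only one of the 12 steadiest members that stayed. The member s2f_0001833004 had 249, 276 and 310 CPM in methylnaphthalene larvae, 248, 295 and 311 CPM in WAF larvae, and 250, 286 and 316 CPM in control larvae, and was steadier with TMM (SD 0.0803) and DESeq2 (SD 0.0922) than with column totals (SD 0.118).

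The other 3 of these were about as steady under column totals, TMM and DESeq2. In s2f_0002658001 the lowest, median and highest values were 415, 467 and 532 CPM in methylnaphthalene larvae, 400, 456 and 550 CPM in WAF larvae, and 410, 483 and 530 CPM in control larvae. Its SDs were 0.123 with column totals, 0.121 with TMM and 0.124 with DESeq2. In s2f_0000029009, whose named relatives are histone-lysine methyltransferases such as SUV39H1, the SDs were 0.130, 0.127 and 0.132. In s2f_0001528002 they were 0.132, 0.115 and 0.117. With TMM alone s2f_0001414004 stayed as well, a relative of the translation factor EIF5A by its group number. With the Kallisto totals all 6 had larger SDs, between 0.302 in s2f_0001414004 and 0.328 in s2f_0001528002.

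**Figure D5:**
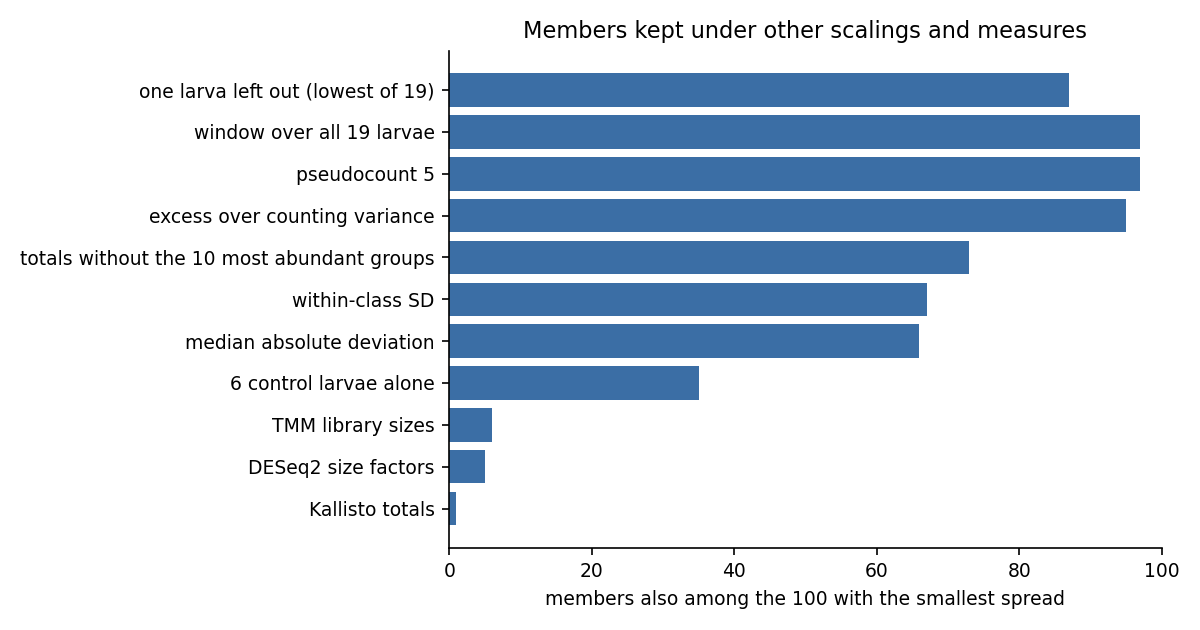
Bars give how many of the 100 members (horizontal axis, from 0) are also among the 100 groups with the smallest spread when 1 choice behind the rule is changed (vertical axis). Changing the denominator to TMM, DESeq2 or Kallisto totals leaves 6, 5 and 1, and leaving out 1 larva leaves at least 87.

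The choice of larvae mattered as well. Ranked on the 6 control larvae alone, 35 members remained among the 100 steadiest. Groups chosen that way had a median SD of 0.158 in the 13 exposed larvae, against 0.0691 in the control larvae that chose them. The other groups of the window had medians of 0.361 in exposed larvae and 0.264 in control larvae. The SD in exposed larvae runs over both exposures together and includes any difference between them, while the control larvae are a single class. The exposed larvae took no part in that choice, and the groups steady in controls also had a lower median SD there than the rest.

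Gene names were taken from ortholog lists supplied with the study, which name only part of the groups and, for the lobster, are sorted by the response to methylnaphthalene. Only 4 members had a name, and 307 of the 2156 groups of the window did. A further 20 members carried no name but shared the group number of a named relative, and 76 had neither. The relatives included the RNA-binding protein CAPRIN1, the chaperone HSP90AB1 and the RAS family. No sequence of a member is shown.

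Besides RIOK3, the named members were a cyclophilin, a helicase and an antioxidant enzyme. CYP11 (s2f_0000090002), a peptidyl-prolyl cis-trans isomerase that assists protein folding and is not a cytochrome P450, ranked 32 with an SD of 0.110. It averaged 508 ± 33.0 CPM in methylnaphthalene larvae, 513 ± 41.0 CPM in WAF larvae and 550 ± 36.8 CPM in control larvae (SD, n = 6, 7 and 6). The means of both exposed groups were below control by about 1 SD of the larvae.

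FAL1 (s2f_0000299001), annotated as eukaryotic initiation factor 4A-III, an RNA helicase of the exon junction complex, ranked 56. It averaged 118 ± 13.9 CPM in methylnaphthalene larvae, 126 ± 4.52 CPM in WAF larvae and 130 ± 6.87 CPM in control larvae (SD, same n). SOD2 (s2f_0001443002), the mitochondrial manganese superoxide dismutase, ranked 73 with 449 ± 44.5 CPM in methylnaphthalene larvae, 465 ± 41.9 CPM in WAF larvae and 427 ± 21.7 CPM in control larvae (SD, same n). The exposed means of SOD2 were the higher ones, within 1 SD of the exposed larvae from control. Its SD was 0.127 with column totals, 0.274 with TMM and 0.136 with the Kallisto totals.

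Textbook reference genes were, as a list and by the median SD, about as variable as the other groups of the window. Of 23 ortholog groups named as actin, glyceraldehyde-3-phosphate dehydrogenase, tubulin, peptidyl-prolyl cis-trans isomerase, ribosomal protein or arginine kinase, 6 lay in the window and 1, CYP11, was a member. Their SDs over all larvae lay between 0.110 and 1.24, with a median of 0.357, against 0.350 in the other groups of the window. The highest SD was that of an isomerase group with a mean of only 2.20 CPM. Of the 23, 8 were named from the lobster list sorted by the response to methylnaphthalene, so the list is not a neutral sample. The members have smaller SDs by the way they were chosen. Only CYP11 and the tubulin beta group BEN-1, at an SD of 0.134 and outside the window at 2647 CPM, were at or below the SD of the last member. Cytoplasmic actin (ACTB) had an SD of 0.227, the glycolytic enzyme GAPDHS 0.237, and ARGK, the arginine kinase that buffers ATP in invertebrate muscle, 0.241. The 9 ribosomal protein groups had SDs between 0.292 and 0.519, the lowest being that of the mitochondrial MRPL28 at 8.51 CPM. The 17 groups outside the window differ from it in abundance. Elongation factor 1-alpha, ubiquitin, TATA-box binding protein and succinate dehydrogenase had no matching name.

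Related genes were not equally steady. Besides CYP11, the isomerases of the same group number included PPIB, with an SD of 0.301 and a methylnaphthalene minus control difference of 0.54, and PPIA, with an SD of 0.322 and a difference of −0.63. Other housekeeping classes were taken by words in the symbols or names of window groups, whatever the function. The members were 1 of 13 kinases or phosphatases, which was RIOK3. They were also 1 of 3 groups named as translation factors, which was FAL1, the exon junction helicase described above. There were 0 of 11 V-ATPase groups (lowest SD 0.280), 0 of 8 respiratory chain groups (lowest SD 0.196), 0 of 2 each for ribosomal proteins, RNA splicing and binding, vesicle traffic and ubiquitin, 0 of 1 chaperonin, and no proteasome group was named. Members are 4.64% of the window, so counts this small say nothing about a class. Of 14 groups named as markers of muscle, cuticle, hemolymph or digestive gland, only 4 lay in the window and could have been members, and 0 were. Of the 14, 12 were named from the lobster list sorted by the response to methylnaphthalene. The SDs of all 14 lay between 0.227, in cytoplasmic actin, and 3.19. The least steady was hemocyanin, the oxygen carrier of the hemolymph, which averaged 4.68 log2 units higher with methylnaphthalene than in control.

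The numbering of the members differed from that of the whole table. Ortholog groups are numbered from the largest family down, and the 10000 largest were split into clusters, given by the last digits. Of the members 95.0% came from those largest families, against 87.1% of the other groups of the window and 63.6% of all groups in the table. The other groups of the window thus lay closer to the members than to the whole table in this respect. By the median family number their order was reversed, at 2967.5 in the members and 2539.5 in the other groups of the window. Over the whole table the median was 5218. Pairs of members with the same family number were s2f_0000379005 with s2f_0000379006 and s2f_0000036015 with s2f_0000036019, which share reads of related proteins only as far as Seq2Fun could divide them.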

How the data were processed

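RNA from 19 whole lobster larvae was sequenced in 1 library each, and the authors mapped the reads in 2 ways. The authors deposited raw counts per ortholog group, obtained with Seq2Fun on its Crustaceans database (mismatches up to 2, minimum matching length 19, minimum BLOSUM62 score 80). They also deposited estimated counts (expected counts) per RefSeq transcript from Kallisto (minimum quality score 25), of which only the column totals were used here. Neither table was normalized. The ability to assign a read to 1 of several related groups limits each count, and total counts per larva set the counting error.

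CPM, SDs and sums of squares were computed in Python 3.11.15 with numpy 2.4.6 and pandas 2.3.3, with a pseudocount of 0.5. Model fits used R 4.3.3 with edgeR 4.0.16 (quasi-likelihood, TMM, all 19 larvae, no covariates), and limma 3.58.1 and DESeq2 1.42.0 as alternatives, after removing groups with a total under 4 counts and the 15% with the smallest interquartile range, as the filters of the study were read. The scripts were checked on simulated data. P-values measure the spread between larvae, whose rearing is not given in the sources used here.

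The members, the gene lists and the tests were chosen with earlier results of these data known. The members named are the 12 with the smallest and the 3 with the largest SD, the 3 with the highest and lowest mean CPM, the 3 with the largest differences from control in each direction and exposure, the 3 with the largest share between classes, and all with a gene name; others were named after their values were seen. A planned test of members as lobster genes in the Kallisto table was not run, because no member could be matched to a lobster gene.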

Additional observations from a re-analysis of the deposited data

Results flagged for a closer look

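For the 33 members named by rule and for the common shift, 102 sets of larvae (1 group and 1 value each) were searched for a larva far from the rest of its group, and 6 were found. The limit was Dixon's critical value for the gap to the nearest larva over the range of the group, which chance passes in about 1 in 20 groups, and the sets share larvae. In s2f_0003299004, WAF larva 1 had 39.5 CPM, against 50.7 to 52.7 CPM in the other WAF larvae. The same larva was low in s2f_0003874004, at 133 CPM against 161 to 184 CPM. WAF larva 6 was low in s2f_0009993003, at 370 CPM against 420 to 440 CPM, and in SOD2 (s2f_0001443002), at 379 CPM against 452 to 512 CPM. WAF larva 1 had the smallest and WAF larva 6 the largest total count of the series, and these were the only larvae named more than once. The part of depth in these values was not tested. In s2f_0007441002, methylnaphthalene larva 6 had 174 CPM, against 188 to 196 CPM in the other methylnaphthalene larvae. In s2f_0004216002, control larva 5 had 55.2 CPM, against 59.0 to 61.0 CPM in the other control larvae. All 6 values lay below the rest of their group.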

How the results depend on the processing

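Of the 100 members, 6 remained with TMM library sizes, 5 with DESeq2 size factors, 66 when ranked by the median absolute deviation, 35 on control larvae alone and 1 with the Kallisto totals, where the members are 4.64% of the window, while 67 to 97 remained under the other 5 settings and 87 to 97 with each larva left out. No member remained under every setting (0 of 100). The median SD over all larvae was 0.201 with TMM, 0.211 with DESeq2 and 0.246 with the Kallisto totals, and 0.117 to 0.121 with 1 larva left out. Inside classes it was 0.205, 0.214 and 0.237 in the same order, and 0.109 to 0.114 with 1 larva left out. The SD of class means was 0.110 with the Kallisto totals, and 0.0506 to 0.0602 with 1 larva left out. The cause of these shifts was not tested. The Kallisto totals and the totals without the 10 most abundant groups were added after seeing the data. The number of members called was 0 in each comparison under all 7 other fits and with each larva left out (0 to 0). The main fit called 6.21% of all groups tested in methylnaphthalene against control, 0.282% in WAF against control and 2.34% in methylnaphthalene against WAF. The members were chosen by their small spread over these same larvae, so nothing is read from these counts.

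The labels do not say whether equal replicate numbers link larvae of different groups. Same-numbered larvae of methylnaphthalene and control had deviations correlated between −0.518 and 0.691, with 4 of 6 pairs above 0.1, and with the number as a block 0 members were called in each comparison. The correlations were between −0.238 and 0.576 for WAF and control, and between −0.322 and 0.725 for methylnaphthalene and WAF. In each of these, too, 4 of 6 pairs were above 0.1. The count over all ortholog groups in methylnaphthalene against WAF was 543 with the block and 257 without it. It was 726 and 682 in methylnaphthalene against control, and 31 both ways in WAF against control. Whether the larvae are linked by number cannot be told here.

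Counting error limits what can be told between members, with up to 48.5% of the variance of a member (s2f_0007288001), and names were known for only 4 members, so the functions of most of the set are not described.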
